A study of Mus musculus with 11 samples.

Results

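Induced pluripotent stem cells made from mouse tail tip fibroblasts (TiPSC) were compared with genetically matched mouse embryonic stem cells (mESC) across all genes on an expression array. The comparison used the 3 arrays titled as TiPSC and the 3 arrays titled as mESC, 6 of the 11 arrays of the series, and covered 18193 genes, each read by its brightest probe set, judged by the mean of all 11 arrays. The labels give a C57/Bl and BlackSwiss mix as the background of all cells. Both groups were kept on irradiated embryonic fibroblast feeders in serum medium with the cytokine LIF, and feeders were depleted by a short plating step before total RNA was taken. Another 3 arrays of induced cells made from ventricular myocytes (ViPSC), and 1 array each of the source cells, tail tip fibroblasts (TTF) and ventricular myocytes (VM) from pups at postnatal day 1, are shown beside the comparison. No label says that arrays of 1 group stem from different cultures or lines, so the p-values here reflect a spread that may be partly technical. Arrays of 1 group did differ in the levels of whole chromosomes, as given below. The labels also do not name the reprogramming factors, the clone or the sex of any sample. Values are log2 signals on the RMA scale, on which 1 unit is a 2-fold difference, and each difference is TiPSC minus mESC with its standard error (SE).

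Reprogramming returns a somatic cell to a state close to that of the embryonic stem cell, which depends on the transcription factors Oct4 (Pou5f1), Sox2 and Nanog. Marks laid down on DNA and histones are largely rewritten on the way, and genes that depend on them are known places of difference between induced and embryonic cells. These include imprinted genes, which are read from 1 parental copy, germline genes that are silenced by promoter methylation in somatic cells, and genes of the sex chromosomes. Embryonic and induced cells also change in long culture, in which whole chromosomes can be gained or lost.

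The arrays did not fall into tight groups. The correlation of mESC 1 over all genes was 0.993 to 0.994 with the TiPSC arrays but 0.988 with mESC 2 and 0.984 with mESC 3, while mESC 2 and mESC 3 correlated at 0.993 and the TiPSC arrays at 0.993 to 0.997. The median SD per gene was 0.123 among TiPSC, 0.155 among mESC and 0.0794 among ViPSC arrays. A range of at least 2 log2 units was seen for 13 genes among the TiPSC arrays and for 132 among the mESC arrays. Values are therefore given by array, and counts of calls in most gene lists also without mESC 1.

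Levels of whole chromosomes also differed between arrays. Over the 256 expressed X-linked genes, those with a mean of at least 7, the median signal against the mean of the 6 arrays was 0.54 in mESC 2 and 0.54 in mESC 3 but -0.26 in mESC 1 and -0.23 to -0.27 in the TiPSC arrays. The 422 expressed genes of chromosome 8 had a median of 0.42 in TiPSC 3, against -0.14 to -0.04 in the other five arrays. The 634 expressed genes of chromosome 11 had a median of 0.33 in mESC 3, against -0.07 to -0.04 in the other five, and of 0.39 to 0.41 in the ViPSC arrays. The medians of the other 17 autosomes lay between -0.07 and 0.08. The 3 mESC arrays thus did not have 1 common level of the X chromosome, and mESC 1 had the level of the TiPSC arrays. The Y-linked gene Eif2s3y, a translation factor subunit, read 5.11, 8.64 and 8.80 in the TiPSC arrays and 3.73, 3.89 and 4.22 in the mESC arrays. Another Y-linked gene, Uty, read 4.25, 5.54 and 5.62 against 4.0, 4.25 and 4.08, so both were lower in TiPSC 1 than in the other TiPSC arrays. Xist, the RNA that coats an inactive X chromosome, read 6.33, 6.07 and 5.88 in TiPSC and 6.40, 8.06 and 7.26 in mESC, with the higher values in the 2 mESC arrays with the higher X level.

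**Figure D1:**
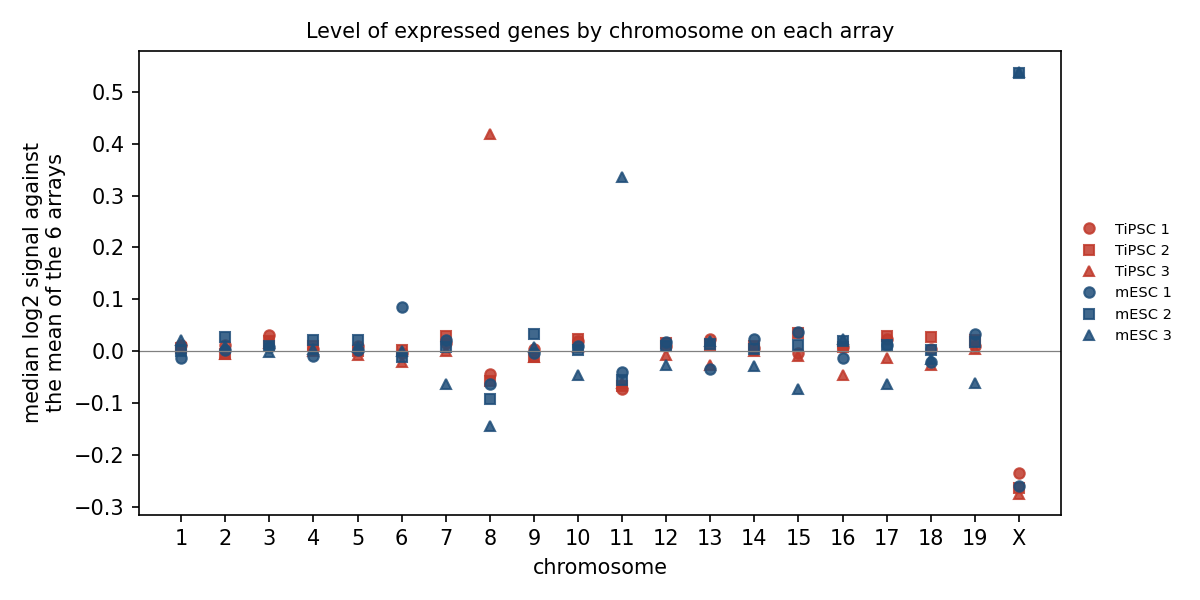
Median log2 signal of the expressed genes of each chromosome (x axis) on each of the 6 arrays, as the difference from the mean of the 6 arrays after centring each array on its autosomal genes (y axis); red marks are TiPSC and blue marks mESC, and the shape gives the replicate. TiPSC 3 stands apart on chromosome 8 (0.42), mESC 3 on chromosome 11 (0.33), and mESC 2 and mESC 3 on the X chromosome (both 0.54).

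A single gene, Ipp, passed an adjusted p under 0.05 in the fit of the 6 arrays with limma (0.0055% of the 18193 genes). Ipp was lower in TiPSC. At an unadjusted p under 0.05 there were 1328 genes higher and 863 lower, and the second lowest adjusted p was 0.060. When the 3 ViPSC arrays were added to estimate the spread, 53 genes were called higher in TiPSC (0.291%) and 62 lower (0.341%), of which 11 and 23 differed at least 2-fold. The ViPSC arrays vary less than the arrays compared, so this 9-array fit takes the spread to be smaller than the 6 arrays show. Leaving 1 array out of it gave between 12 calls, without TiPSC 1, and 3038 calls, without mESC 1. It gave 19 without TiPSC 2, 17 without mESC 2 and 57 without mESC 3. The fit of 5 arrays without mESC 1 called 720 genes higher (3.96%) and 580 lower (3.19%). Among them were 113 of the 115 genes of the 9-array fit, in the same direction. Those 5 arrays are also part of the 9-array fit, so this overlap gives no independent support for its calls. Of the 115 genes, 9 were called in each of the 6 fits that left out 1 compared array, namely Ipp, Rian, Stra8, Rbm44, Apod, Dmkn and Sparc, all lower in TiPSC, and Hunk and Iqcc, both higher. Of the 115 calls, 105 were lost without TiPSC 1, 99 without TiPSC 2, 52 without TiPSC 3, 98 without mESC 2, 70 without mESC 3 and 0 without mESC 1. The fit without mESC 1 was the single one of the 6 that kept the calls of 43 genes, among them Taf7l, Sgce, Magel2, Impact, Csrnp3, Herpud1, Myl9 and Col5a2. As a count without a model, all 3 TiPSC arrays lay above all 3 mESC arrays for 1770 genes (9.73%) and below them for 1111 genes (6.11%).

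Ipp, the IAP promoted placental gene, encodes a kelch repeat protein and was first found through a placental transcript that starts in an intracisternal A particle, a mouse endogenous retrovirus. It lies on chromosome 4 (chr4:116507512-116543410, GRCm38.p6). Ipp, the long RNAs Meg3 and Mirg, and the germline gene Taf7l were each lower on every TiPSC array. CpG methylation before the start is a known route of silencing for imprinted and germline genes, but its part here was not tested. The sequences before the annotated starts of Ipp, Meg3, Mirg and Taf7l are shown here. They are RefSeq sequences of build GRCm38.p6, 5′ to 3′ on the gene's strand, with each CpG in capitals.
Ipp, chr4:116507299-116507511, plus strand: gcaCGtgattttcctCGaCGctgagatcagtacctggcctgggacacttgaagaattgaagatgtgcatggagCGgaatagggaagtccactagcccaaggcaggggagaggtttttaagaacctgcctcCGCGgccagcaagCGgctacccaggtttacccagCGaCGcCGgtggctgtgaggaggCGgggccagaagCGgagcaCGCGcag
Meg3, chr12:109540746-109540995, plus strand: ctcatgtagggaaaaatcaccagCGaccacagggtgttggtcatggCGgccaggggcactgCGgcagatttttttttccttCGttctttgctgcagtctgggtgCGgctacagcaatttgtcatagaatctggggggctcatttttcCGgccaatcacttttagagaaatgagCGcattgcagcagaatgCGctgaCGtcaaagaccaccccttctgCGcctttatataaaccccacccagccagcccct
Mirg, chr12:109734731-109734980, plus strand: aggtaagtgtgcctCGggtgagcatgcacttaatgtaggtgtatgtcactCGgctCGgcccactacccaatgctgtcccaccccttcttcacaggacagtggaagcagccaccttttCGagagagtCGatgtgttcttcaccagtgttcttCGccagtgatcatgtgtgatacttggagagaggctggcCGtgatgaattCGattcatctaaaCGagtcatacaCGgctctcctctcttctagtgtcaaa
Taf7l, chrX:134476506-134476740, minus strand: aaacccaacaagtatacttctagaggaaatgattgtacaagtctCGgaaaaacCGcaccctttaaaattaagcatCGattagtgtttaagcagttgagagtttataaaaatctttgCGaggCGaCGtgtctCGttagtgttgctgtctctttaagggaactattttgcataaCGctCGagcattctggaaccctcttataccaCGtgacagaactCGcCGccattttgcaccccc
The Ipp stretch held 14 CpG in 213 bases, or 6.57 per 100 bases, a density above that of 76.5% of the 32851 windows of 250 bases in the table. Meg3 and Mirg each held 10 CpG in 250 bases and Taf7l 12 in 235, while the window of Rian, at chr12:109603695-109603944, held 0. The median over all windows was 2.4 per 100 bases. The letters TGACGTCA, the binding motif of CREB-type factors, searched on both strands, were found in the Meg3 window and in 1.55% of all windows. The E-box letters CACGTG were found in the Ipp and Taf7l windows and in 6.02% of all windows. These arrays measured RNA and no methylation.

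Ipp read 5.97, 5.75 and 5.83 in the TiPSC arrays and 9.95, 10.63 and 10.64 in the mESC arrays. Every TiPSC array was thus over 3 log2 units below every mESC array, the widest such gap of any gene, with the ViPSC arrays at 5.95, 5.87 and 6.11 and the source fibroblasts at 5.38 beside the TiPSC level. The difference was -4.56 (SE 0.20), or 23.6-fold, with an adjusted p of 0.00149 in the limma fit of 6 arrays. Leaving out 1 array in turn gave differences between -4.62 and -4.44 without any of TiPSC 1, TiPSC 2, TiPSC 3, mESC 2 or mESC 3 and of -4.78 without mESC 1, and the call was lost without TiPSC 2 (adjusted p = 0.0504). It was also lost with the replicate number as a block (adjusted p = 0.076). Ipp was read by 1 probe set. Its nearest measured neighbours did not share the difference, as Mast2, a kinase gene before it, read 8.71 to 9.04 in TiPSC and 8.96 to 9.31 in mESC, and Tmem69 after it read 6.51 to 6.73 and 6.03 to 6.51.

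The noncoding RNAs of the imprinted Dlk1-Dio3 region of chromosome 12 were low on all TiPSC arrays. In this region the maternal copy makes the long RNAs Meg3, Rian and Mirg, which carry many small RNAs, and the paternal copy makes the protein-coding genes. Rian read 5.94, 5.72 and 5.20 in TiPSC and 10.16, 8.49 and 8.99 in mESC. Meg3 read 7.41, 6.76 and 6.24 in TiPSC and 10.61, 9.16 and 8.80 in mESC. Mirg read 4.27, 4.09 and 4.13 in TiPSC and 7.91, 6.28 and 5.99 in mESC. The groups did not overlap for any of these RNAs, and mESC 1 was the highest array for each. The differences were -3.59 (SE 0.42) for Rian, -2.72 (SE 0.50) for Meg3 and -2.56 (SE 0.46) for Mirg, which did not pass in the limma fit of 6 arrays (adjusted p = 0.103, 0.217 and 0.214) and passed in the 9-array fit (0.00771, 0.044 and 0.034). When 1 array was left out of the 9-array fit, Rian was called in all 6 fits. Meg3 and Mirg were called in 2 of these 6 and lost without TiPSC 1, TiPSC 2, TiPSC 3 or mESC 2. The Mirg signal in TiPSC lay near the bottom of the scale and was not shown to be above background. All 11 probe sets of Meg3, 4 of 4 of Rian and 2 of 2 of Mirg had the same sign. The ViPSC arrays were as low, at 5.58 to 5.69 for Rian, 6.38 to 7.20 for Meg3 and 3.94 to 4.28 for Mirg. The source fibroblasts read 12.27, 12.64 and 8.45, above every pluripotent array. The other 2 measured members, Dlk1, a paternally expressed growth regulator, at 4.06 to 4.22 in TiPSC and 4.02 to 4.09 in mESC, and Dio3os, at 4.08 to 4.19 and 4.07 to 4.199, were near the bottom of the scale on all 6 arrays. Of the 5 measured members, 3 were lower in the 9-array fit and 0 higher, and the list was chosen with this pattern known.

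**Figure D2:**
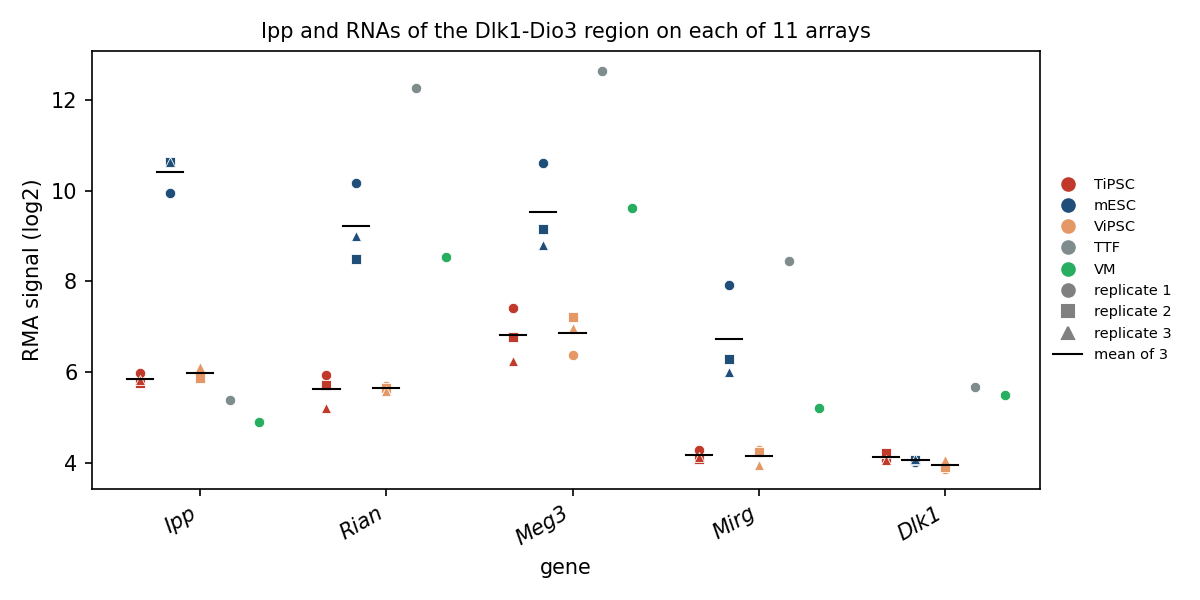
RMA signal (log2, y axis) of Ipp and of 4 genes of the Dlk1-Dio3 region (x axis) on each of the 11 arrays; colour gives the group, shape the replicate and the black line the mean of 3 arrays, and TTF and VM have 1 array each. TiPSC and ViPSC arrays sit together below the mESC arrays for Ipp, Rian, Meg3 and Mirg, and TTF reads 12.27 for Rian.

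Other imprinted genes differed in both directions. Of 40 measured, all TiPSC arrays were above all mESC arrays for 8 (20%, against 9.73% of all genes) and below for 7 (17.5%, against 6.11%). The 9-array fit called 3 higher and 1 lower, against 0.291% and 0.341% of all genes. Without mESC 1, 5 were called higher and 2 lower, against 3.96% and 3.19% of all genes. Mest, a paternally expressed hydrolase gene, read 9.95, 9.82 and 9.98 in TiPSC and 8.73, 8.29 and 8.84 in mESC, a difference of 1.30 (SE 0.16) with an adjusted p of 0.011 in the 9-array limma fit, lost without TiPSC 1 (0.064). Sgce, a paternally expressed sarcoglycan gene, read 8.30, 8.35 and 8.41 against 7.84, 7.17 and 6.98 (adjusted p = 0.0499 in the 9-array limma fit). Magel2, from the Prader-Willi region, read 5.32, 5.29 and 5.27 against 4.77, 4.50 and 4.37 (adjusted p = 0.034 in the 9-array limma fit). Impact, a regulator of the kinase that senses amino acid lack, was the lower one, at 9.87, 9.98 and 9.80 against 10.73, 10.44 and 10.56 (0.049 in that limma fit). Sgce, Magel2 and Impact were called in 1 of the 6 fits that left out 1 array, the one without mESC 1. Zdbf2 and Grb10 had differences of -1.49 (SE 0.39) and -1.23 (SE 0.51) that did not pass. Grb10, which encodes an adaptor that restrains growth factor receptors, spread over 10.01, 8.93 and 7.73 in the mESC arrays and stayed within 7.61 to 7.71 in TiPSC, so mESC 3 was next to the TiPSC arrays.

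Some germline genes were lower in TiPSC. Of the 33 measured, 24 had a negative and 9 a positive difference, and 6 were called lower and 0 higher by the 9-array fit, namely Rhox9, Rhox6, Khdc3, Stra8, Rbm44 and Taf7l, against 0.341% and 0.291% of all genes. All 3 TiPSC arrays were below all mESC arrays for 12 (36.4%, against 6.11% of all genes) and above them for 0, and the median difference of the list was -0.49 against 0.029 over all genes. Without mESC 1 the calls were 14 lower and 0 higher, against 3.19% and 3.96% of all genes, and the 6-array fit called none of the 33.

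Stra8, which cells need to enter meiosis, read 5.30, 5.79 and 5.58 in TiPSC and 7.26, 7.20 and 7.64 in mESC. Rbm44, which encodes an RNA-binding protein of germ cell bridges, read 4.53, 4.73 and 4.93 in TiPSC and 6.75, 6.20 and 6.64 in mESC. The groups were well apart for both, with mESC 1 among the other mESC arrays. The differences were -1.81 (SE 0.17) and -1.80 (SE 0.18), with adjusted p-values in the 9-array limma fit of 0.00361 and 0.00555, and both calls held in all 6 fits without 1 array. The homeobox genes Rhox9 and Rhox6, X-linked and expressed in the reproductive system and placenta, read 6.92, 7.14 and 7.54 and 7.23, 7.53 and 7.97 in TiPSC. In mESC they read 9.07, 10.65 and 10.81 and 9.31, 10.60 and 10.68, so mESC 1 was the lowest mESC array and still over 1 log2 unit above every TiPSC array. Rhox6 and Rhox9 are close relatives, each read by 1 probe set here, and how far these probe sets tell them apart was not tested. Their differences were -2.62 (SE 0.38) and -2.98 (SE 0.45), with adjusted p-values of 0.017 and 0.019 in the 9-array limma fit, lost without TiPSC 1, TiPSC 2 or mESC 2. Khdc3, part of the maternal protein complex of the egg, read 6.37, 7.04 and 6.59 against 8.16, 8.65 and 9.50 (adjusted p = 0.024 in the 9-array limma fit, kept without mESC 1 or mESC 3 and lost without any other). Taf7l, a germ cell form of a subunit of the general transcription factor TFIID, read 4.71, 4.72 and 5.08 against 5.78, 7.01 and 6.96 (0.038 in that limma fit, called in 1 of 6). Of the 6 genes, Rhox9, Rhox6 and Taf7l lie on the X chromosome, whose level was high in mESC 2 and mESC 3. In mESC 1, which had the TiPSC level of the X chromosome, each of the 3 was above every TiPSC array. That is a reading of 1 array, and the part of the X level in these differences was not tested.

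The ViPSC mean was nearer the mESC mean than the TiPSC mean for all 6 called germline genes. Rhox9 read 10.50 to 10.79, Khdc3 9.46 to 9.81 and Rbm44 7.42 to 7.75 in the ViPSC arrays. Over all 62 genes called lower by the 9-array fit, the ViPSC mean was nearer mESC for 42 and nearer TiPSC for 20. Ipp, Rian, Meg3 and Mirg were among the 20. Members of the list that did not pass included the meiotic chromosome genes Hormad1, at 4.75, 4.93 and 4.99 against 5.08, 7.26 and 7.73, and Sycp1, at 4.95, 5.22 and 5.36 against 5.84, 6.41 and 6.83. For Hormad1, mESC 1 was next to the TiPSC arrays.

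**Figure D3:**
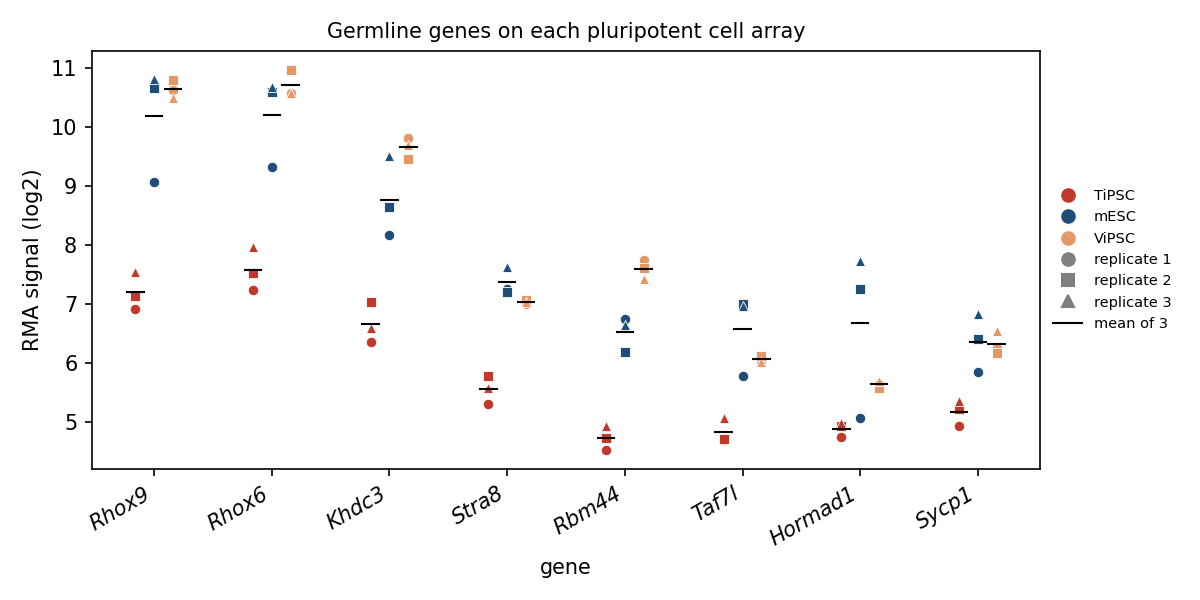
RMA signal (log2, y axis) of 8 germline genes (x axis) on the TiPSC, mESC and ViPSC arrays; colour gives the group, shape the replicate and the black line the mean of 3 arrays. The TiPSC arrays are the lowest for each gene, and mESC 1 lies below the other mESC arrays for Rhox9 (9.07), Rhox6 (9.31) and Hormad1 (5.08).

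Among the other genes called lower in all 6 fits that left 1 array out of the 9-array fit were genes of unlike roles. Apod, which encodes a lipid-binding secreted protein, read 4.73, 4.55 and 4.31 in TiPSC and 6.04, 6.54 and 6.95 in mESC. Dmkn, an epidermal secreted protein gene, read 4.72, 4.98 and 4.89 against 6.37, 6.32 and 6.07. Sparc, a matrix protein gene abundant in fibroblasts and in parietal endoderm, read 10.38, 10.32 and 10.22 against 11.06, 10.999 and 11.20. The 3 had adjusted p-values of 0.00771, 0.00555 and 0.00846 in the 9-array limma fit. Cdkn2a, the locus of the cell cycle brakes p16 and p19ARF, read 7.50, 7.38 and 7.61 against 8.25, 8.45 and 8.85 (adjusted p = 0.022 in the 9-array limma fit, lost without TiPSC 1, TiPSC 2 or mESC 2), and 11.71 in the source fibroblasts.

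Some of the largest lower differences rested on mESC 2 and mESC 3. The X-linked genes Fmr1nb, at 7.15, 7.70 and 7.39 in TiPSC against 8.83, 11.60 and 11.63, and Pnma5, at 6.50, 6.53 and 5.48 against 7.04, 10.53 and 10.66, had mESC 1 nearest to TiPSC. The ViPSC arrays, with an X median of -0.31 to -0.30, read 9.94 to 10.21 for Fmr1nb and 9.62 to 9.64 for Pnma5. The part of the X level in these differences was not tested. Pramel7, a gene of early embryos that favours the naive state, read 3.58, 3.74 and 4.06 against 4.12, 7.62 and 8.96. Gm21283 read 4.18, 4.44 and 3.98 against 5.47, 7.63 and 8.37. For all 4 the groups did not overlap, and none passed in the fit of 6 arrays (limma adjusted p = 0.302 to 0.378) or of 9 arrays (0.061 to 0.156), while all were called without mESC 1 (0.000833 to 0.00523). On the X chromosome as a whole, all TiPSC arrays were below all mESC arrays for 113 of 617 genes (18.3%, against 6.11% of all genes). Without mESC 1, 205 of the 617 were called lower (33.2%, against 3.19%). The X-linked escape genes Kdm6a and Ddx3x, read at 8.69, 8.83 and 8.56 and at 12.68, 12.56 and 12.71 in TiPSC, were at 8.87, 10.09 and 9.65 and at 12.84, 13.32 and 13.29 in mESC.

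After Eif2s3y, the largest higher differences between groups that did not overlap were those of Cnn1, Fgf5 and Frem2, for which mESC 1 was the mESC array nearest to TiPSC. Fgf5, the growth factor that marks the primed epiblast, read 7.60, 6.50 and 7.76 in TiPSC and 6.43, 4.59 and 4.82 in mESC. Cnn1, a smooth muscle calponin, read 8.11, 7.79 and 8.04 against 7.42, 5.17 and 5.26. Frem2, a basement membrane protein gene, read 7.42, 7.26 and 7.32 against 7.03, 4.50 and 4.58. The other mESC arrays were at least 1 log2 unit below mESC 1 for all 3 genes. Among the 10 largest higher differences between groups that did not overlap, from 1.56 (SE 0.58) for Ap1m2 to 3.57 (SE 0.93) for Eif2s3y, none passed in the 6-array limma fit (adjusted p = 0.206 to 0.386), and Csrnp3 alone passed in the 9-array fit (0.044). The other five were Plac8, Slc39a8, Neu1, Lratd2 and Csrnp3 itself, a gene of a nuclear protein family, which read 5.73, 5.57 and 5.82 against 4.76, 3.74 and 3.61. Csrnp3 was called in 1 of the 6 fits that left 1 array out of the 9-array fit, that without mESC 1. Of its 3 probe sets, 2 had the same sign, and the mean of all probe sets gave a difference of 0.59 in place of 1.67. That mean also gave smaller differences for Eif2s3y (1.83), Fgf5 (1.26), Slc39a8 (0.84) and Neu1 (0.65). The rest of the 10 genes were read by 1 probe set each.

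Hunk, which encodes a kinase of the SNF1 family, was higher in TiPSC in each of the 9-array fits. It read 7.89, 7.60 and 8.03 in TiPSC and 6.24, 6.22 and 6.49 in mESC, with ViPSC at 6.18 to 6.64. The difference was 1.53 (SE 0.14), and the adjusted p was 0.00771 in the 9-array limma fit and at most 0.049 with 1 array left out. Iqcc, of chromosome 4, read 6.31, 6.41 and 6.44 against 5.51, 5.43 and 5.33 and had the same adjusted p of 0.00771 in the 9-array limma fit. Acp5, tartrate-resistant acid phosphatase, read 8.50, 8.70 and 8.31 against 7.32, 6.86 and 7.32 (0.00846 in the 9-array limma fit, lost without TiPSC 1, adjusted p = 0.056). Of the 932 genes of chromosome 8, whose level was raised in TiPSC 3, the 9-array fit called 10 higher (1.07%, against 0.291% of all genes) and 0 lower. On that chromosome all TiPSC arrays were above all mESC arrays for 178 of 932 genes, a larger share than the 9.73% of all genes.

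**Figure D4:**
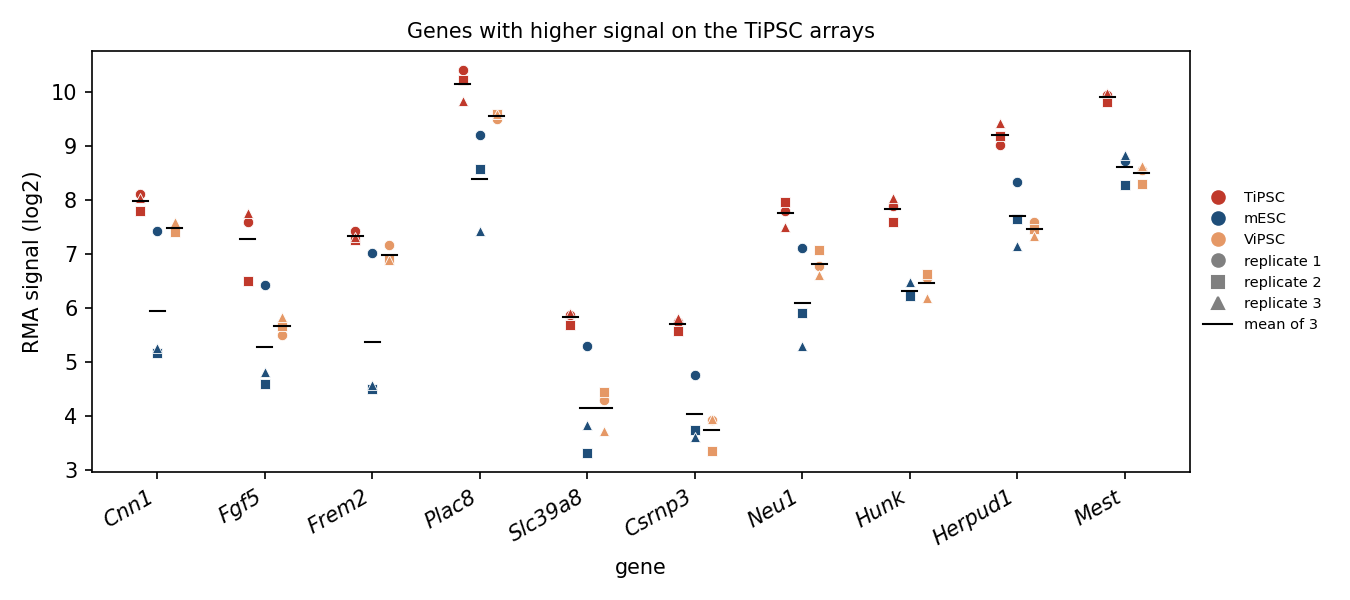
RMA signal (log2, y axis) of 10 genes that read higher in TiPSC (x axis) on the TiPSC, mESC and ViPSC arrays; colour gives the group, shape the replicate and the black line the mean of 3 arrays. The circle of mESC 1 lies near the TiPSC arrays for Frem2 (7.03) and Cnn1 (7.42), and within the mESC group for Hunk (6.24) and Mest (8.73).

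The core of the pluripotency network was not called different. Of 42 measured core and naive genes, 0 were called by the 6-array limma fit or the 9-array fit. Over all genes the 6-array fit called 0.0055%, and the 9-array fit 0.291% higher and 0.341% lower. At such shares, 0 calls do not set a list of this size apart from all genes. The groups did not overlap for 3 higher (7.14%, against 9.73% of all genes) and 3 lower (7.14%, against 6.11%). Pou5f1 read 12.83, 12.91 and 12.97 in TiPSC and 13.00, 12.96 and 13.05 in mESC. Sox2 read 12.16, 12.08 and 11.92 against 12.12, 12.22 and 12.46, and Nanog read 12.58, 12.48 and 12.37 against 12.33, 12.88 and 13.15. The groups overlapped for all 3 genes, and the source fibroblasts read 3.94, 4.23 and 3.95. Klf4, Esrrb, Lin28a and Myc had differences of -0.18 (SE 0.18), 0.01 (SE 0.11), 0.29 (SE 0.17) and 0.21 (SE 0.29). Zfp42, a marker of naive cells known as Rex1, read 10.06, 9.96 and 9.83 in TiPSC and 11.51, 9.75 and 9.39 in mESC, with mESC 1 the highest array. Tcl1, an activator of Akt kinases, had the largest difference of the list, with 9.28, 9.50 and 9.27 in TiPSC and 9.67, 10.87 and 10.78 in mESC. Prdm14, a repressor that guards the naive state, read 6.95, 7.04 and 7.86 against 7.51, 8.71 and 8.57. Without mESC 1, 5 of the 42 were called lower, Tcl1 and Prdm14 among them, against 3.19% of all genes, and 2 higher, against 3.96%.

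Genes of the primed epiblast read low in mESC 2 and mESC 3. Of 19 measured, all TiPSC arrays were above all mESC arrays for 4 (21.1%, against 9.73% of all genes) and below for 2 (10.5%, against 6.11%), and 0 were called by the 6-array or 9-array limma fit. The mean level of the list was 7.79, 7.62 and 7.95 in TiPSC and 7.80, 7.18 and 7.01 in mESC, so mESC 1 lay among the TiPSC arrays. Without mESC 1, 7 were called higher and 0 lower, against 3.96% and 3.19% of all genes. Fgf5 was among them, as was Lef1, a Wnt pathway transcription factor, at 7.48, 7.48 and 7.09 against 6.82, 5.64 and 5.72. Dnmt3b, a DNA methyltransferase that is also on the list of DNA methylation and polycomb genes, was another, at 11.96, 11.83 and 11.70 against 11.45, 10.63 and 10.07. From that list, the 9-array limma fit called 2 of 37 lower and 0 higher, against 0.341% and 0.291% of all genes. The fit without mESC 1 called 4 lower and 2 higher, against 3.19% and 3.96% of all genes. The 2 of the 9-array fit were Bmi1, a polycomb subunit, at 5.72, 5.83 and 6.22 against 6.57, 7.19 and 7.30 (adjusted p = 0.046), and Jarid2, a polycomb partner, at 11.79, 11.79 and 11.93 against 12.41, 12.54 and 12.27 (0.035). Both calls were lost without TiPSC 1, TiPSC 2 or mESC 2, and that of Bmi1 also without mESC 3.

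Genes of the 2-cell-like state, a rare state of embryonic stem cells that reads genes of the early embryo, had no call in the fits with all 3 mESC arrays. Of 15 measured, 0 were called by the 6-array or 9-array limma fit, and the groups did not overlap for 4 lower (26.7%, against 6.11% of all genes) and 0 higher (against 9.73%). Without mESC 1, 3 were called lower and 0 higher, against 3.19% and 3.96% of all genes. Pramel6 was among these 3, as was Pramel7, given above as a gene that favours the naive state. The mean level of the list was 4.87, 4.84 and 4.90 in TiPSC and 4.88, 6.48 and 5.73 in mESC, so mESC 1 had the TiPSC level. Tcstv1 of the list read 7.22 in mESC 2 and 3.24 to 3.71 on the other five arrays. BC080696, AF067061 and Gm20767, which are not on the list, were also highest in mESC 2, at 8.59, 10.37 and 7.53, with 4.21, 7.11 and 3.54 in mESC 3. In the endoderm list it was mESC 1 that stood apart, with a mean level of 7.38 against 6.33 to 6.51 on the other five arrays. Cubn, the endocytic receptor of visceral endoderm, read 8.63 in mESC 1 and 3.18 to 3.63 on the other five. Srgn, a proteoglycan gene, read 9.80 in mESC 1 and 4.31 to 5.71 elsewhere. The 9-array limma fit called 2 of 26 endoderm genes lower, Sparc and Amn, the partner of Cubn, at 6.31, 6.10 and 6.23 against 8.03, 6.98 and 7.39 (adjusted p = 0.044, lost without TiPSC 1, TiPSC 2, TiPSC 3 or mESC 3). Over all genes the 9-array fit called 0.341% lower and 0.291% higher. The 9-array fit without mESC 1 kept both calls of the list. The 5-array limma fit without mESC 1 called 2 genes of the list lower and 0 higher, against 3.19% and 3.96% of all genes.

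Genes of the fibroblast, the source cell and also the feeder cell, were apart higher more often than apart lower. Of 47 measured, all TiPSC arrays were above all mESC arrays for 15 (31.9%, against 9.73%) and below for 3 (6.38%, against 6.11%), with a median difference of 0.36 against 0.029 for all genes. The 9-array limma fit called 2 higher and 1 lower, against 0.291% and 0.341% of all genes. Without mESC 1, 6 were called higher and 1 lower, against 3.96% and 3.19% of all genes. Col5a2, a collagen chain, read 8.80, 8.28 and 8.27 in TiPSC and 7.76, 7.32 and 7.57 in mESC (adjusted p = 0.049), and Ccn1, a matrix signalling protein gene, 10.70, 10.68 and 10.61 against 10.04, 9.95 and 10.19 (0.026); Sparc was the lower one. Both higher calls were lost without TiPSC 1, TiPSC 2 or mESC 2, and that of Col5a2 also without TiPSC 3 or mESC 3. The mean level of the list was 8.22, 7.90 and 7.78 in TiPSC, 7.73, 7.48 and 7.76 in mESC and 12.56 in the source fibroblasts. The defining collagen genes Col1a1 and Col1a2 read 7.26, 6.81 and 6.77 and 10.63, 10.23 and 9.84 in TiPSC against 6.50, 6.09 and 6.11 and 9.89, 9.23 and 9.53 in mESC, with 13.33 and 14.97 in the source fibroblasts. Col1a1 and Col1a2 did not pass in the 6-array limma fit (adjusted p = 0.315 and 0.372), and for Col1a2 TiPSC 3 was below mESC 1. Postn, also a defining gene, read 7.10, 6.64 and 6.21 against 6.22, 5.46 and 6.10, so its groups overlapped. Those of Thy1, a surface marker of tail fibroblasts, overlapped too, at 6.46, 6.34 and 5.96 against 6.10, 6.20 and 6.40 (difference 0.02, SE 0.15). Dcn read 5.27 to 5.65 against 5.10 to 5.19. In bulk RNA, a larger share of fibroblasts, as feeder or as source cells, and more fibroblast RNA per cell cannot be told apart, and the part of either in these values was not tested.

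Genes that read high in the source cells as a class were examined the same way. Of 1284 genes at least 2 log2 units higher in the fibroblast array than in the mean of the ViPSC arrays, the 6-array limma fit called 0, against 1 of all genes. The 9-array fit called 9 higher (0.701%, against 0.291% of all genes) and 10 lower (0.779%, against 0.341%). All TiPSC arrays were above all mESC arrays for 168 (13.1%, against 9.73% of all genes) and below for 61 (4.75%, against 6.11%). Without mESC 1, 94 were called higher and 33 lower, against 3.96% and 3.19% of all genes. The median difference was 0.088 against 0.029 for all genes, while the fibroblast array lay a median of 2.97 above the mESC mean for these genes. Against the ViPSC mean, the median over these genes was 0.14, 0.07 and 0.14 in TiPSC and 0.07, -0.03 and 0.05 in mESC, so TiPSC 2 was level with mESC 1. Of the genes called higher, Myl9, a smooth muscle myosin light chain, read 8.40, 8.11 and 8.30 against 7.58, 6.85 and 6.73 (adjusted p = 0.040 in the 9-array limma fit). Sulf1, a heparan sulfatase gene, read 8.10, 7.76 and 8.07 against 7.10, 7.03 and 7.10 (0.011), and Eya1, a developmental regulator, 5.23, 5.44 and 5.32 against 4.42, 4.07 and 4.45 (0.022). Sulf1 and Eya1 lost their calls without TiPSC 1 or mESC 2, and Eya1 also without TiPSC 2. The smooth muscle list, 14 measured, had a median difference of 0.51. Of its members, 3 were apart higher (21.4%, against 9.73% of all genes) and 0 lower (against 6.11%). The 9-array fit called 1 higher, Myl9, against 0.291% of all genes. Without mESC 1, 7 were called higher and 0 lower, against 3.96% and 3.19% of all genes. The mean level of the list was 7.95, 7.73 and 7.98 in TiPSC and 7.78, 7.11 and 7.06 in mESC, so TiPSC 3 was the highest array here and the lowest TiPSC array in the fibroblast list.

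**Figure D5:**
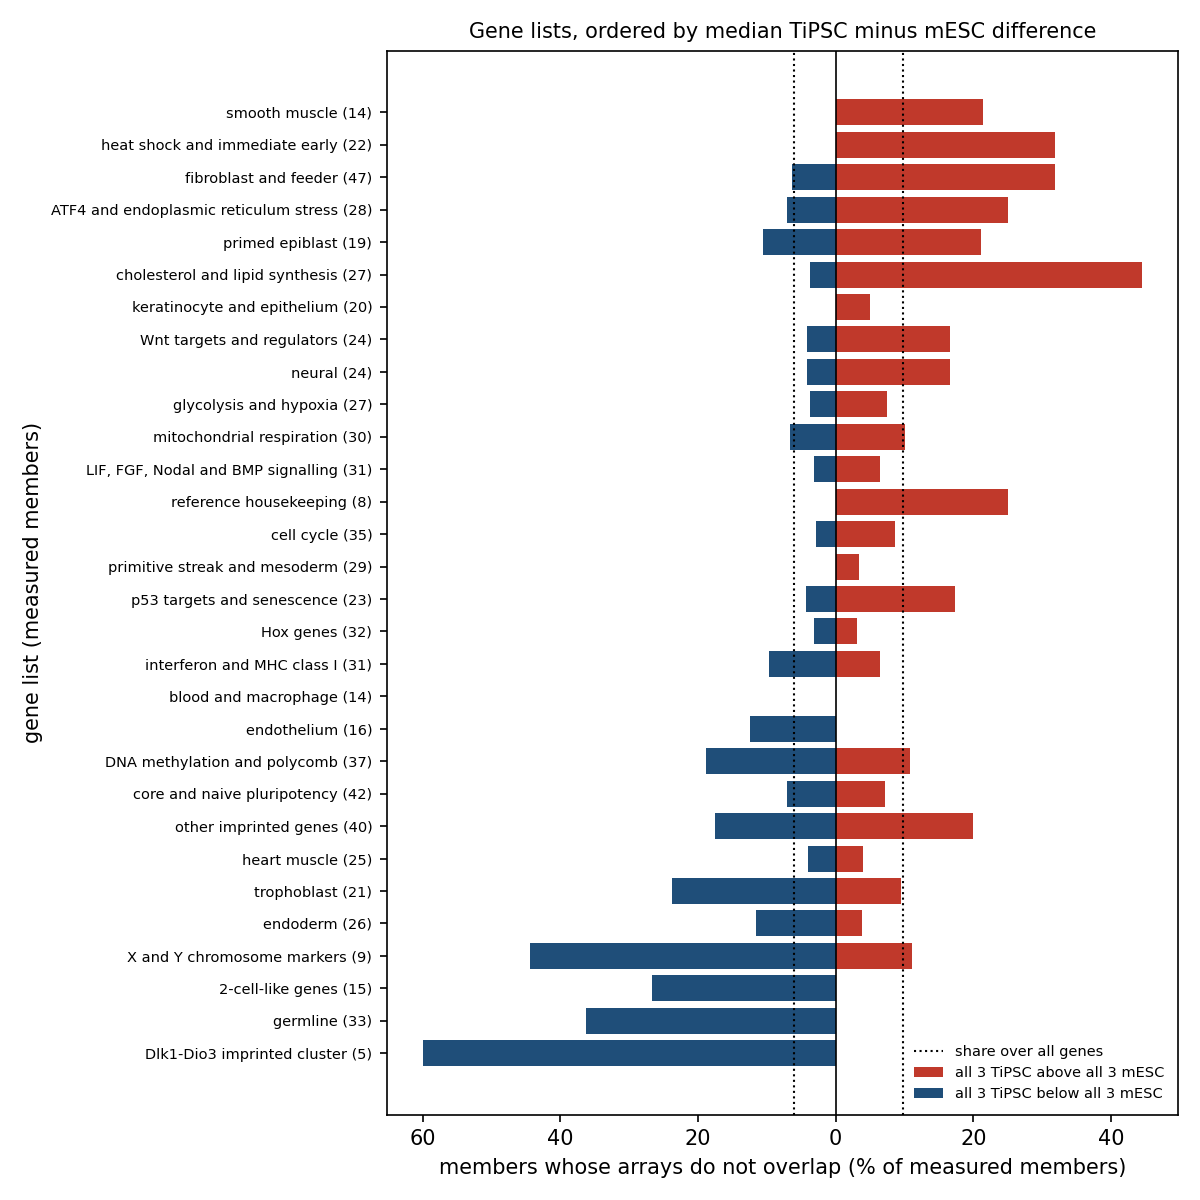
For each of 30 gene lists (y axis, with the number of measured members), the share of members (x axis, percent) whose 3 TiPSC arrays all lie above the 3 mESC arrays (red, right) or all below them (blue, left); dotted lines give the shares over all 18193 genes, 9.73% and 6.11%. Cholesterol and lipid synthesis (44.4%) reaches farthest to the right and the Dlk1-Dio3 cluster (60% of 5), the X and Y chromosome markers (44.4% of 9) and the germline list (36.4% of 33) farthest to the left.

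Of 27 measured genes of cholesterol and lipid synthesis, none was called by the 6-array or the 9-array limma fit. All TiPSC arrays were above all mESC arrays for 12 (44.4%, against 9.73% of all genes) and below for 1 (3.70%, against 6.11%), and 21 differences were positive and 6 negative, with a median of 0.21. Without mESC 1, 2 were called higher and 1 lower, against 3.96% and 3.19% of all genes. Msmo1, a sterol oxidase gene, read 10.89, 10.73 and 11.39 against 10.41, 10.22 and 10.16, and Fdps, which makes farnesyl diphosphate, read 11.87, 11.82 and 11.41 against 11.10, 11.13 and 11.13. Msmo1 lies on chromosome 8 and reads highest in TiPSC 3. The X-linked Ebp, a sterol isomerase gene, went the other way, at 9.33, 9.14 and 9.23 against 9.07, 10.68 and 10.93. Of 28 measured genes of the ATF4 and endoplasmic reticulum stress list, the 9-array limma fit called 3 higher and 0 lower (against 0.291% and 0.341% of all genes). The groups were apart for 7 higher (25%, against 9.73%) and 2 lower (7.14%, near the 6.11% of all genes). Without mESC 1 the calls were 6 higher and 1 lower, against 3.96% and 3.19% of all genes. Herpud1, of endoplasmic reticulum protein degradation, read 9.02, 9.18 and 9.44 against 8.34, 7.66 and 7.15 (adjusted p = 0.044, called in 1 of 6 fits without 1 array). It too lies on chromosome 8. The serine synthesis genes Phgdh and Psat1 read 11.88, 11.83 and 11.87 against 11.40, 11.29 and 11.22 and 12.18, 12.23 and 11.91 against 11.58, 11.28 and 11.51 (0.022 and 0.047 in that limma fit, each lost without TiPSC 1, TiPSC 2, mESC 2 or mESC 3). Chac1, an ATF4 target that breaks down glutathione, read 8.69, 8.65 and 8.32 against 7.61, 7.38 and 6.30 and did not pass (adjusted p = 0.305 in the 6-array limma fit and 0.067 in the 9-array limma fit). Xbp1, a transcription factor of the same response, went the other way, at 10.12, 9.99 and 9.74 against 10.63, 10.47 and 10.89 (0.054). Of 22 heat shock and immediate early genes, 7 were apart higher (31.8%, against 9.73% of all genes) and 0 lower (against 6.11%). The 6-array and 9-array limma fits called 0 of them. Without mESC 1, 4 were called higher and 0 lower, against 3.96% and 3.19% of all genes. Jun read 10.63, 10.52 and 10.05 against 9.93, 9.13 and 9.08.

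Lists of other cell types differed in how far the arrays overlapped. The heart muscle list had a mean level of 5.06 to 5.21 in TiPSC and 5.13 to 5.23 in mESC against 12.05 in the ventricular myocytes. The mean of the blood and macrophage list was 5.31 to 5.33 against 5.26 to 5.32, and that of the Hox list 4.14 to 4.195 against 4.13 to 4.193. None of the members of these lists was called by the 6-array or 9-array limma fit. The same holds for the neural, trophoblast and endothelium lists. Of 24 neural genes, 4 were apart higher (16.7%, against 9.73% of all genes) and 1 lower (4.17%, against 6.11%). Without mESC 1, 5 were called higher and 0 lower, against 3.96% and 3.19% of all genes. Gbx2, a homeobox gene, read 8.23, 7.66 and 6.87 in TiPSC and 7.48, 5.18 and 4.79 in mESC, and Sox11, a neural transcription factor gene, read 9.44, 9.30 and 9.05 against 9.04, 7.80 and 6.48. For both, mESC 1 was the highest mESC array. Of 21 trophoblast genes, 2 were apart higher (9.52%, near the 9.73% of all genes) and 5 lower (23.8%, against 6.11%), with 0 called without mESC 1. Plac1, an X-linked placental gene, read 4.77, 4.33 and 5.27 against 5.53, 6.84 and 5.53. Of 16 endothelium genes, 0 were apart higher (against 9.73% of all genes) and 2 lower (12.5%, against 6.11%). The 2 lower were the receptor gene Tek, at 5.69, 5.76 and 5.07 against 5.99, 6.21 and 7.34, and the adhesion gene Pecam1, at 6.59, 7.20 and 6.97 against 7.34, 7.66 and 8.19.

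Replicates of TiPSC differed among themselves at a few genes. Beside Eif2s3y, the widest ranges were found for Csn3, at 4.12, 3.40 and 6.17, AI662270, at 5.77, 8.26 and 5.73, and Ltb, the lymphotoxin beta gene, at 6.41, 5.38 and 7.89. Spink1 read 6.70, 7.61 and 5.20, Fam183b 6.27, 6.63 and 4.36, Mid1 5.38, 7.33 and 7.65, and Sp5, a Wnt target, 8.85, 6.59 and 7.84. TiPSC 3 was the array that differed from the other two for Csn3, Ltb, Spink1 and Fam183b, and TiPSC 1 for Mid1. Among the mESC arrays the 8 widest ranges were those of Cubn, BC080696, Pramel7, AF067061, Srgn and Gm20767, given above, and of the X-linked genes 1700013H16Rik, at 3.21, 4.97 and 8.0, and Efhc2, at 4.10, 7.58 and 8.79.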

How the data were processed

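Total RNA from 11 mouse samples was hybridised to Affymetrix mouse expression arrays. The deposited values are log2 signals that the authors made with RMA, per the submitters' processing notes. RMA corrects background, quantile-normalises the arrays and summarises probes, so it sets the overall level of the arrays alike and compresses differences near background. Its version is not given in the sources used here. No detection calls were used, and precision is set by how few arrays a group has.

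Of 45101 probe sets, 64 controls, 932 with several gene symbols and 9160 without a symbol were left out. The remaining 34945 gave 18193 genes, 9010 of them with more than 1 probe set, of which the brightest by the mean of all 11 arrays was kept. Positions came from a RefSeq table of GRCm38.p6 that held 18031 of the genes.

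TiPSC and mESC were compared with limma 3.58.1 (R 4.3.3, lmFit and eBayes, two-sided) on the 6 arrays compared, because the ViPSC arrays vary less. Adjusted p-values are Benjamini-Hochberg over all genes, and a gene was called under 0.05. SE values are from this fit. The fit was tested on simulated data. The 9-array fit adds the ViPSC arrays as a group of their own. A gene was named where it was among the 10 largest differences in each direction between groups that do not overlap, among the 2 largest of its list, of the widest range within a group, or in a fixed set of pluripotency, imprinted, sex-linked and fibroblast genes. Other genes, including those named for a call in the 9-array fit, were chosen after their values were seen. The comparison, the 30 lists (754 of 823 entries measured) and the rules were chosen with earlier results of these data known. A list is described by its counts and median, and no set test was run. Alternatives are given in the closing section.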

Additional observations from a re-analysis of the deposited data

How the results depend on the processing

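With 3 arrays a group that vary unequally, counts of calls depended on the fit far more than differences did. Beside the 1 gene called by the 6-array fit (also 1 at least 2-fold), there were 115 calls (34 at least 2-fold) with 9 arrays, 873 (241) with array weights, 5 (4) with the mean of all probe sets, 5 (5) with median centring, 6 (5) without chromosomes 8, 11, X and Y, and 0 (0) with the replicate number as a block. Leaving out 1 array gave 0 to 1300 calls (0 to 426 at least 2-fold), with 0 without TiPSC 2 and 1300 without mESC 1. Array weights gave mESC 1 the lowest weight (0.408). Every probe set, genes above the median level alone, and the trended robust fit each kept 1 call. Genes high in the fibroblasts had 0 calls in the 6-array fit, 19 with 9 arrays, 92 with array weights, and 0 to 127 with 1 array left out. Their median difference of 0.088 was 0.040 over every probe set and 0.15 without the genes of low level, and 0.060 to 0.12 with 1 array left out; definitions by 1 or 3 log2 units, or also against VM, gave 0.074, 0.10 and 0.087. In the 9-array fit, 115 calls became 12 to 3038 with 1 array left out (chosen after seeing the data) and 93 without the 4 chromosomes. For the 97 genes named by rule, 1301 alternative values counted as unchanged, by a move of less than 1 SD or a kept call, and 11 moved further. Only Ipp had a call to keep, and a call gained did not count as a move. Cnn1, for example, had an adjusted p of 0.337 in the 6-array limma fit and of 0.0015 without mESC 1. Ipp lost its call with the block (adjusted p = 0.076) and without TiPSC 2 (0.0504), against 5.73e-05 to 0.043 under its other alternatives of the 6 arrays.

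The labels share replicate numbers 1 to 3 across the groups. Deviations of same-numbered arrays from their group means correlated at -0.084, 0.12 and -0.12, and those of arrays with unlike numbers at -0.14 to 0.17. With 3 arrays a group, this check cannot tell whether same-numbered arrays were handled together. The fit with the replicate number as a block gave 0 calls. The causes of these changes were not tested beyond the array or gene set left out.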

Other observations

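The genes called higher by the 9-array fit in TiPSC held the ViPSC arrays on both sides. For the 53 genes the ViPSC mean was nearer the mESC mean for 36 and nearer the TiPSC mean for 17. Crocc, the gene of a ciliary rootlet protein on chromosome 4, read 7.16, 7.08 and 6.98 in TiPSC, 6.38, 6.22 and 6.31 in mESC and a mean of 7.14 in ViPSC. Thap1, a zinc finger transcription factor gene, read 8.13, 8.21 and 8.10 in TiPSC, 7.68, 7.69 and 7.69 in mESC and a mean of 7.63 in ViPSC.

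Of 617 measured X-linked genes, 17 had all TiPSC arrays above all mESC arrays (2.76%, against 9.73% of all genes). Pim2, a kinase gene on the X chromosome, was one of them, at 9.32, 9.16 and 9.57 in TiPSC against 8.99, 8.20 and 8.42 in mESC. It read lower in mESC 2 and mESC 3, the arrays with the higher level of that chromosome. The folate receptor gene Folr1 read 9.25, 9.25 and 8.79 in TiPSC against 9.69, 10.24 and 10.12 in mESC (adjusted p = 0.049 in the 9-array limma fit). Mnd1, a meiotic recombination gene that is not on the germline list, went against that list, at 8.99, 9.05 and 8.75 in TiPSC against 8.36, 8.0 and 7.93 in mESC (0.031 in the 9-array limma fit). Without TiPSC 1, TiPSC 2 or mESC 2 the calls of Crocc, Thap1, Folr1 and Mnd1 were all lost. That of Mnd1 was also lost without mESC 3, and those of Thap1 and Folr1 also without TiPSC 3 or mESC 3, which left them called in 1 of the 6 fits.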
